A study of Mus musculus with 7 samples.

Results

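Reads of telomere repeat RNA were taken from a table of read sequences made by RNA immunoprecipitation sequencing of mouse embryonic stem cell nuclei. A read belonged to the set when it was at least 26 bases long and held 3 or more perfect tandem units of the vertebrate telomere hexamer, TTAGGG or its reverse complement CCCTAA. This gave 3670 reads of 768 distinct sequences, out of 31529044 reads of 6331745 sequences that were long enough. The whole table holds 34072479 reads of 6540936 sequences.

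In this assay a protein is pulled from lysed nuclei with an antibody, and RNA recovered with the protein is copied into cDNA and sequenced. The labels list 7 libraries, all from embryonic stem cells kept with LIF, a cytokine that holds such cells undifferentiated. An antibody to Ezh2, the catalytic subunit of the Polycomb complex PRC2, was used for 5 libraries from cells of strain 129X(M.castaneusX129), namely a first library, its technical replicate, a biological replicate, and deeper sequencing, in 2 lanes each, of the first sample and of the biological replicate. The same antibody was used for 1 library from Ezh2 null cells, labelled M.musculus, and normal rabbit IgG for 1 library from 129X(M.castaneusX129) cells. The labels do not say how the Ezh2 null cells were made. No header or label connects the 1 deposited table with any of these libraries. Its name carries abbreviations that may refer to the wild-type biological replicate, but the labels do not explain them and they were not used. The values below therefore describe that table without replicates and without a control, and none is an enrichment by Ezh2. All intervals are 95% intervals that cover counting error only, because the reads carry no molecular identifiers that would mark PCR copies.

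Telomeres end each chromosome with long arrays of the hexamer. The strand whose bases run TTAGGG toward the chromosome end is made by telomerase, which copies a template in its own RNA, and the arrays are covered by the shelterin proteins. RNA polymerase II also transcribes the arrays, mostly from the neighbouring subtelomere toward the chromosome end, which gives the G-rich UUAGGG repeat RNA called TERRA. TERRA stays largely in the nucleus, and its links to telomeric heterochromatin and to chromatin-modifying proteins are the reason it is of interest in a nuclear immunoprecipitation. Transcription of the other strand gives C-rich CCCUAA repeat RNA.

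Reads in this table run opposite to the RNA. Over annotated nuclear genes outside the 18S-like ribosomal DNA locus, 86.3% of 6788852 assigned reads were the reverse complement of the annotated transcript, with 82.9% at a read length of 36 bases and 86.8% at 40 bases. Over all 11363133 assigned reads the share was 78.3%, with 79.9% at the 18S-like locus and 32.8% in mitochondrial genes, whose 2 DNA strands are both transcribed in full. A read of CCCTAA units was therefore counted as G-rich UUAGGG RNA, and a read of TTAGGG units as C-rich CCCUAA RNA.

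The sequences that follow are shown because they are the most read G-rich sequences with 8 or more bases outside the perfect tract on a side. They show what lies beside a tract. They are written as sequenced, 5′ to 3′, and capitals mark the perfect repeat tract, that is the longest stretch that keeps to the hexamer base by base in 1 phase. The left end of each line is the downstream (3′) end of the RNA stretch and the right end its upstream (5′) end.
G-rich, 30 reads, upstream flank: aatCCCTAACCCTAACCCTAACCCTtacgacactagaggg
G-rich, 26 reads, flanks on both sides: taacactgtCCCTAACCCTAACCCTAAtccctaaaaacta
G-rich, 22 reads, downstream flank: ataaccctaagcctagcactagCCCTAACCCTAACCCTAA
In the first of these the repeat gives way to 15 bases without a further unit. In the third, a tract of 18 bases is preceded in the read by interrupted repeat in the same phase. That stretch holds a further unit and 5 deviating bases.

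Telomere repeat RNA was almost all G-rich. Of the 3670 reads, 3658 were UUAGGG RNA (99.67%, Clopper-Pearson interval 99.43 to 99.83) and 12 were CCCUAA RNA, which is 305 G-rich reads for each C-rich read. With each distinct sequence counted once, 760 of 768 were G-rich (98.96%, 97.96 to 99.55). With the first 6 bases also taken off, 412 of 419 were (98.3%, 96.6 to 99.3). The balance was thus also present when copies of a sequence were not counted, although distinct sequences can be variants of the same repeat. No read held 3 units in both orientations. The 12 C-rich reads came from 8 sequences, of which the most read had 3 reads, and 5 of these reads were repeat from end to end. The C-rich share of 0.327% by reads lay below the antisense share of annotated nuclear genes, which was 13.7% outside the 18S-like locus, and below that of all assigned reads, 21.7%.

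Both main read lengths of the table showed this balance. G-rich RNA had 538 reads of 36 bases and 3105 reads of 40 bases, and C-rich RNA had 6 of each. The G-rich share was 98.9% at 36 bases (97.6 to 99.6) and 99.81% at 40 bases (99.58 to 99.93). Other lengths, from 28 to 34 bases, held 15 member reads, and the table has 0 reads of 37 to 39 bases. Per 1000000 table reads of the same length, G-rich reads numbered 86.05 at 36 bases (Poisson interval 78.9 to 93.6) and 125 at 40 bases (121 to 130), and these intervals do not overlap. Counted as distinct sequences per 1000000 distinct sequences, the values were 118 (102.9 to 135) and 122 (112 to 133), and these do overlap. The labels do not say whether the 2 read lengths stand for different libraries.

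The tracts mostly filled the read. Among G-rich reads the longest run of whole hexamer units was 3 in 591 reads, 4 in 339, 5 in 1127 and 6 in 1601, and 6 units are the most that a 36-base or 40-base read can hold. C-rich reads held 3 units in 2 reads, 4 in 3, 5 in 4 and 6 in 3. The median tract of a G-rich read was 36 bases, with a range from 18 to 40, and 86.1% of all bases in G-rich reads lay in the tract. Just outside the rule, reads with exactly 2 units in a row numbered 3031 for G-rich and 40 for C-rich RNA, so the G-rich share was 98.7% there (98.2 to 99.1) against 99.66% at exactly 3 units (98.8 to 99.96). Below 26 bases, 1 read held 3 units, and it was G-rich.

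**Figure D1:**
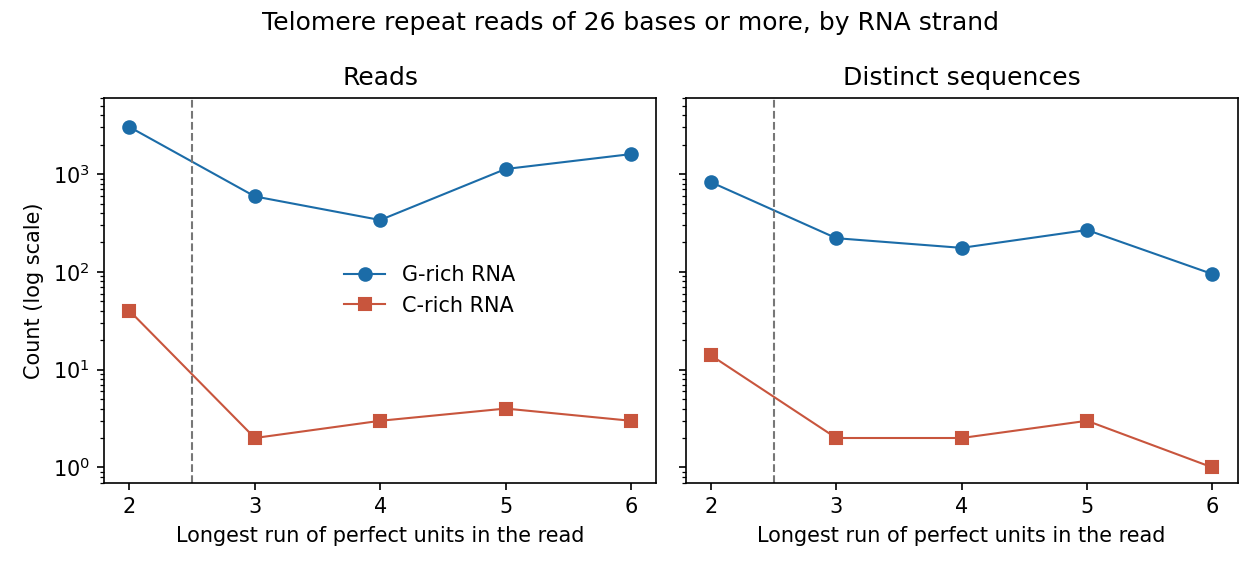
Counts of reads (left) and of distinct sequences (right) on a log scale against the longest run of perfect hexamer units in a read, for G-rich (circles) and C-rich (squares) RNA. Points right of the dashed line are the 3670 members, and G-rich counts stand above C-rich counts at each number of units, from 591 against 2 reads at 3 units to 1601 against 3 at 6 units.

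Few sequences held many of the reads. The most read G-rich sequence had 345 reads, or 9.43% of the G-rich total, the 10 most read held 27.5%, and the 100 most read held 68.7%. At the other end, 462 of the 760 sequences (60.8%) were read once. The mean was 4.81 reads per G-rich sequence, and 4.98 over all reads of at least 26 bases. With the first 6 bases taken off, the 760 sequences fell together into 412, the most read of which had 764 reads. A pure repeat of a given length can have only as many sequences as the hexamer has phases, so reads from separate molecules can share a sequence here.

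By reads, the most frequent class departed from the repeat only in the first 6 bases, and by distinct sequences it did not. Of the 3658 G-rich reads, 780 (21.3%, 20.01 to 22.7) were repeat from end to end, and 1777 (48.6%, 46.9 to 50.2) departed from it only within the first 6 bases. A further 571 (15.6%) had 1 to 3 deviating bases after base 6. The remaining reads had more than 3, and they divide into 279 (7.63%) with a further whole unit outside the tract, as when the repeat resumes in another phase, and 251 (6.86%) with none. By distinct sequences these 5 classes were 1.97%, 35%, 41.7%, 10.8% and 10.5%, because a pure repeat gives few sequences and each deviation gives another. When the search left out the first 6 bases, 3498 reads qualified, and 73.3% of them were repeat over the rest of their length.

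The same leading bases deviated in reads of messenger RNA. This was compared in 40-base reads that were perfect over bases 13 to 30 and had at most 3 deviating bases after base 6. Telomere reads were taken here by the perfect 18 bases in any phase, without asking for 3 whole units, so that the bases around this window were free to deviate in both sets. There were 2458 such telomere reads, 2439 of them members, and 92498 reads of 64 listed protein-coding genes, in RNA-sense orientation, each set against the best-matching transcript of its gene. At base 1, 35.8% of telomere reads deviated from the repeat and 35.01% of the messenger RNA reads deviated from the transcript. At base 4 the values were 9.85% and 20.9%, and at base 6 they were 7.16% and 18.1%. Over bases 7 to 12 the means were 0.556% and 3.26%, and over bases 31 to 40 they were 1.58% and 5.96%. Telomere reads thus deviated about as often as messenger RNA at base 1 and less often after it. The messenger RNA values also take in strain differences and unannotated exons, whose part was not tested.

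**Figure D2:**
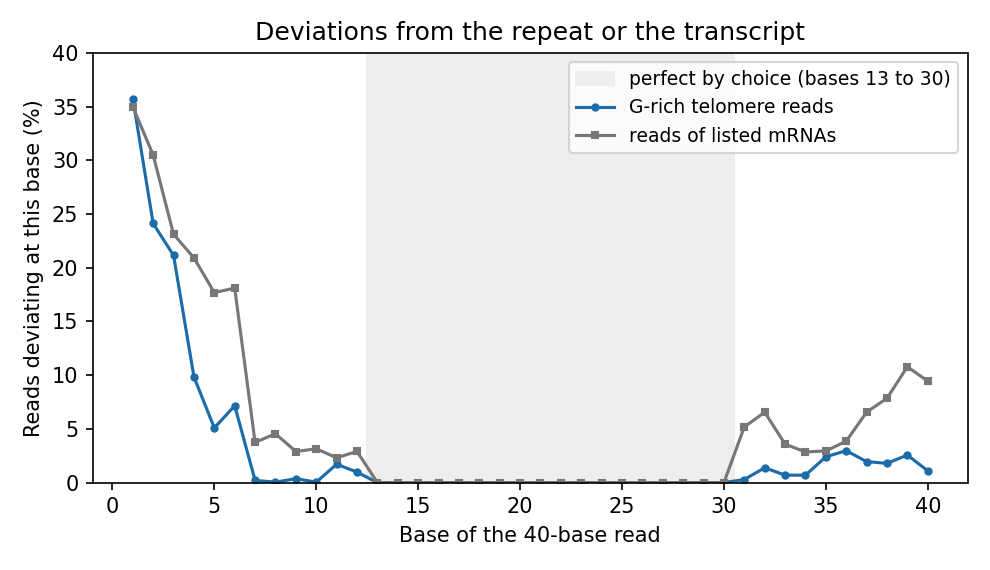
Percentage of 40-base reads that deviated at each base, from the repeat for G-rich telomere reads (circles) and from the annotated transcript for reads of 64 listed genes (squares). Bases 13 to 30, shaded, were perfect by choice. Both sets start near 35% at base 1, and telomere reads then lie below the messenger RNA reads.

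Bases outside the tract were spread differently over the 2 ends of the RNA stretch. At the upstream end, which is the end of the read, the tract reached the last base in 2764 of 3658 G-rich reads (75.6%). At the downstream end, which is the start of the read, it reached the first base in 935 (25.6%) and base 7 or earlier in 3231 (88.3%). An upstream flank of 8 bases or more was present in 466 reads of 185 sequences (12.7%, 11.7 to 13.9) and a downstream flank of that length in 417 reads of 159 sequences (11.4%, 10.4 to 12.47). These intervals overlap, but they count copies of a sequence as separate reads, and a difference between the sides was not tested. By distinct sequences the shares were 24.3% upstream (21.3 to 27.6) and 20.9% downstream (18.1 to 23.99). Both flanks were that long in 108 reads (2.95%). Upstream flanks of 8 or more were found in 8.18% of 36-base reads (6.01 to 10.8) and 13.6% of 40-base reads (12.4 to 14.8), and a longer read has more room for a flank. Among the 12 C-rich reads, 2 had an upstream flank of 8 or more and 0 a downstream one.

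**Figure D3:**
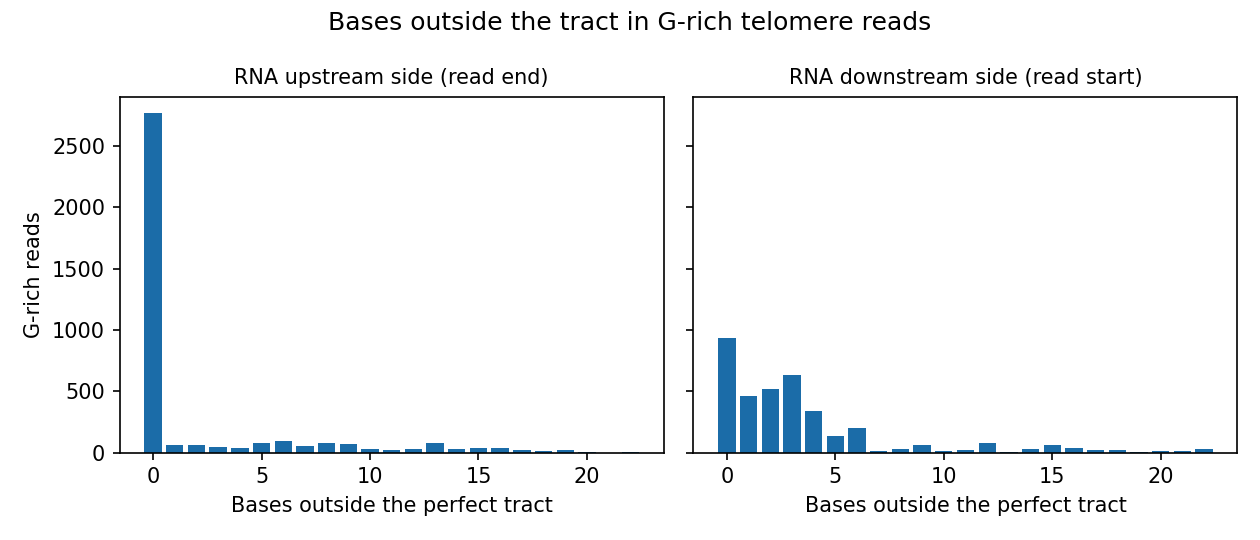
Number of G-rich reads by the count of bases outside the perfect tract, at the upstream end of the RNA (left, end of the read) and at the downstream end (right, start of the read). Upstream, 2764 reads had 0 such bases, while downstream most reads had between 0 and 6, with 935 at 0 and 633 at 3.

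Many of the long flanks were themselves telomere-like. A further whole unit lay in 230 of the 466 upstream flanks (49.4%, 44.7 to 53.99) and in 242 of the 417 downstream flanks (58.03%, 53.1 to 62.8). The sequences printed above hold both kinds, a tract that ends in sequence without a unit and tracts beside interrupted repeat. Upstream flanks were sorted by the 10 bases next to the tract, which gave 72 kinds in 324 reads, and 13 kinds occurred at 2 or more distances from the read start. Downstream flanks, taken beyond the first 6 bases, gave 29 kinds in 128 reads, of which 7 occurred at 2 or more distances. The largest kind had 30 reads upstream and 26 downstream, so that no single kind made up the set. Kinds at 2 or more distances mostly kept to the repeat with a shift or a substitution, as with TCTAACCCTA at 7 distances upstream. The largest upstream kind, TACGACACTA, came from 1 sequence at 1 distance. The kinds are therefore not a count of junctions with other sequence. The chromosomes from which these flanks come were not analysed here.

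Within the repeat, units with 1 substituted base were of many kinds. After the first 6 bases, G-rich reads held 17551 unit positions in phase with their tract. Of these, 91.04% were perfect, 3.504% had 1 substitution and 5.458% had more. Reads were chosen for a run of perfect units, and the positions of that run are counted here. The shares therefore depend on the rule and do not measure how often the repeat deviates. All 18 possible single substitutions occurred. In RNA orientation the most frequent were UUAGGU with 91 units in 26 sequences, UUAAGG with 82 in 24, UUAGUG with 64 in 24 and UUAUGG with 59 in 25. UUGGGG and UGAGGG, which are known as variant repeats at the inner end of human telomeres, had 42 units in 30 sequences and 26 in 14. Each kind made up at most 0.519% of the unit positions, and sequencing errors and true variants cannot be told apart here.

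The reads did not start evenly over the hexamer, as read from the phase of the tract carried back to base 1. Of the 3658 G-rich reads, 1281 (35.02%, 33.5 to 36.6) had the phase AACCCT, 1157 (31.6%) the phase TAACCC, and 717 (19.6%) the phase CTAACC. Without deviations, the phase AACCCT means an RNA stretch that ends in AGGGUU. Of the 1281 reads, 515 had no deviation in the first 6 bases, so that end was not seen in the others. The phases CCTAAC with 224 reads, ACCCTA with 198 and CCCTAA with 81 (2.21%, 1.76 to 2.74) were rare. The order of the 3 leading phases was the same at 36 bases, with 39.8%, 30.48% and 16.2%, and at 40 bases, with 34.3%, 31.98% and 20.3%. By distinct sequences TAACCC led with 30.3%, and AACCCT followed with 28.3%. Among the 970 reads without a deviation in the first 6 bases, AACCCT made up 53.1%.

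**Figure D4:**
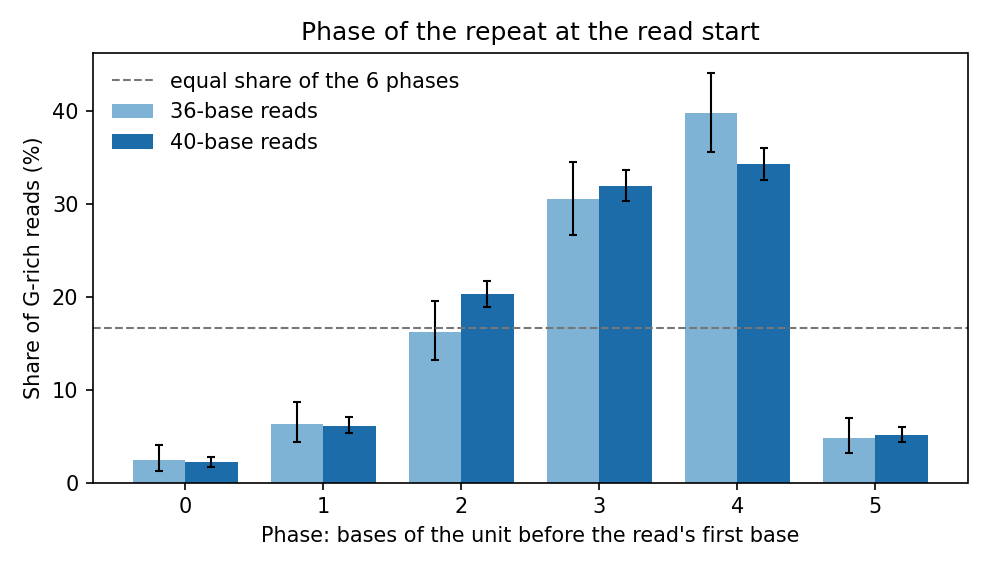
Share of G-rich reads by phase, given as the number of bases of the read unit CCCTAA that precede the first base of the read, for 36-base and 40-base reads with 95% Clopper-Pearson intervals. The dashed line is an equal share. The phase is carried back from the tract, so the first bases of a read may deviate from it. Phase 4 (AACCCT), phase 3 and phase 2 lead at both lengths, and phase 0 is the lowest, at 2.42% and 2.19%.

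Strand imbalance was common among tandem hexamers in this table. For this comparison a read counted for a hexamer class when it held 18 bases of perfect 6-base repeat in any phase, which gave 4222 telomere reads, 4204 G-rich and 18 C-rich (99.57%, 99.33 to 99.75). Of 176 classes with a read and distinct strands, 49 had at least 50 reads, and in 45 of them the interval of the share on the leading RNA strand lay above 50% (91.8%). The telomere class is 1 of these 45, so a lead of 1 strand does not set it apart. The median share on the leading strand was 94.4%, and 8 other classes had a share at least as high as the telomere class. Of 41 such classes with unequal G and C, 33 were led by the G-richer strand (80.5%).

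By reads the telomere class was the second largest. It followed a class led by CCCUUU RNA, with 6278 reads of 2101 sequences and 98.3% on that C-rich strand. AGAGGG had 2829 reads (94.4% on this strand), ACAGAG 2691 (75.2%) and AAGGAG 2618 (98.8%). By distinct sequences the telomere class, with 927, stood at rank 5. Tandem repeats 1 base away from the telomere hexamer each had fewer reads than the telomere class. Of 18 such classes, 15 had a read, and 1 had at least 50, AGUGUU with 117 reads of 14 sequences. Over all classes, 49 of the 176 with a read had at least 50, and a difference from them was not tested. AGGGUC followed with 40 reads, of which 22 were on that strand, and AGGGCU with 37.

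**Figure D5:**
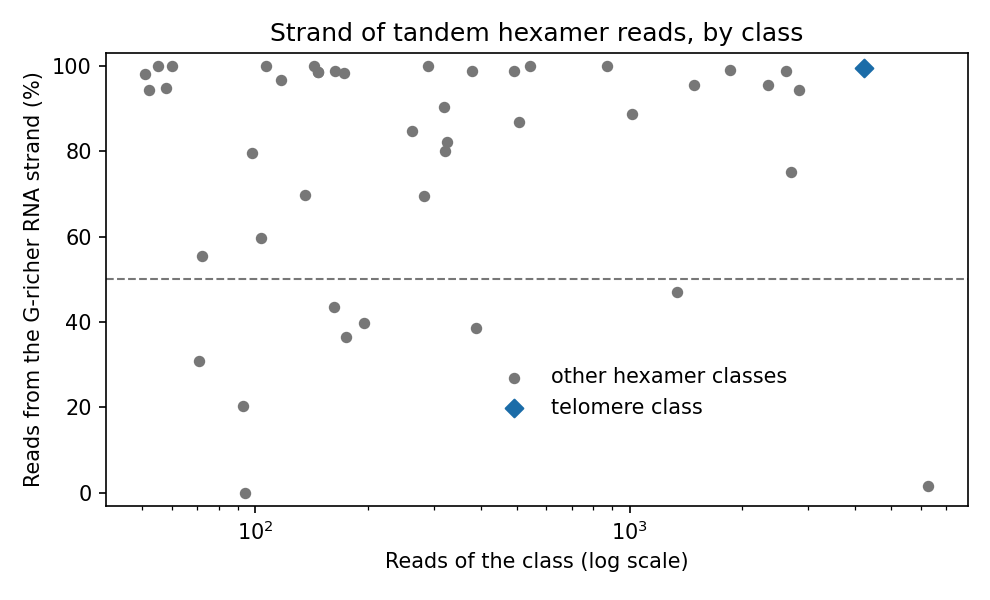
Share of reads from the G-richer RNA strand against the number of reads (log scale) for hexamer classes with at least 50 reads whose strands differ in G and C. The telomere class (diamond) lies at 4222 reads and 99.6%, while the class with most reads, 6278, lies at 1.66%, since its C-rich strand led.

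Annotated transcripts hold little of the repeat, and nearly all of that is in the C-rich orientation. Among 141767 GENCODE M21 transcripts (GRCm38), 9 transcripts of 7 genes hold 3 or more CCCUAA units in sense and 1 transcript holds 3 UUAGGG units, a Tsfm transcript of chromosome 10 (tract at 127024254 to 127024271, downstream untranslated region). The longest is in the downstream untranslated region of Xkrx, an XK-related gene (chromosome X, tract at 134150064 to 134150117, minus strand), with 9 units. Arsb, the gene of the lysosomal arylsulfatase B, holds 8 (chromosome 13, 93941212 to 93941259, plus strand, downstream untranslated region). A retained intron of Sympk, a scaffold of mRNA 3′ end processing, holds 7 (chromosome 7, 19033572 to 19033613, plus strand). The lincRNA Gm28265 holds 6 units (chromosome 15, 103104094 to 103104129, minus strand).

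Matched without their first 6 bases and with up to 2 mismatches, 3069 G-rich reads fell on several of these genes at once, all in antisense orientation, as with 3062 on Sympk and 3061 on Xkrx. A single gene was matched by 31 G-rich reads, also in antisense, led by Xkrx with 13 and Smarcad1, a chromatin remodeller gene, with 9. No G-rich read was in sense orientation to a single annotated gene, and 558 reads of 181 sequences matched no transcript. Of the C-rich reads, 11 matched several of the genes in sense, and 1 matched Arsb alone, in sense. A pure repeat matches any of these tracts equally, so the matches do not say where a read comes from.

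Transcripts of genes that build or bind telomeres were also in the table. Of the nuclear protein-coding genes, 29.1% had at least 50 sense reads, and their median was 0.0853 sense reads per kb of exon per 1000000 reads of at least 26 bases (RPKM). Among 12 genes of telomerase and its assembly 10 reached 50 sense reads, with a median of 1.97 RPKM. Gar1, a protein of the H/ACA particle that holds telomerase RNA, had 1653 sense reads (Poisson interval 1574 to 1735) at 30.6 RPKM, Naf1, its assembly factor, 1617 at 16.6 RPKM, the ATPase gene Ruvbl2 1262 at 13.8 RPKM, and Dkc1, the pseudouridine synthase of the particle, 857 at 6.596 RPKM. Of the Gar1 reads 1117 were 36 bases long, and of the Naf1 reads 23. Telomerase itself had fewer sense reads than the genes just named. Tert, its reverse transcriptase, had 44 sense reads (31.97 to 59.1) at 0.244 RPKM, above the median of the nuclear protein-coding genes. Terc, its RNA with the C-rich template, had 2 sense reads (0.242 to 7.22) and 1 antisense read, at 0.15 RPKM. Telomere repeat RNA has no transcript length here, so its 3658 G-rich reads cannot be placed on the RPKM scale.

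Of the 7 shelterin genes 6 had at least 50 sense reads, at a median of 0.797 RPKM. Terf1, which binds the double-stranded repeat, had 380 sense and 0 antisense reads at 2.62 RPKM, and its relative Terf2 had 82 sense and 76 antisense reads at 0.566 RPKM. Acd, the TPP1 subunit that recruits telomerase, had 257 sense reads at 2.25 RPKM, Pot1b and Pot1a, which bind the single-stranded G-rich overhang, had 190 at 1.14 RPKM and 94 at 0.344 RPKM, and Tinf2, which links the double-strand binders to the others, had 124 at 0.797 RPKM. Terf2ip, with 39, was the member below 50.

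Of 16 genes of telomere replication and end processing 10 reached 50 sense reads, at a median of 0.867 RPKM. The helicase gene Blm led with 2184 sense reads at 7.89 RPKM, followed by the tankyrase gene Tnks with 819, Rad50 with 709 and the repeat-binding Hmbox1 with 625. Of 20 genes of telomere chromatin and TERRA-binding proteins 16 did, at a median of 1.47 RPKM. Cbx1, a heterochromatin protein 1 gene, had 9090 sense reads at 67.5 RPKM, Atrx, the remodeller that places histone H3.3 at telomeres, 5683 at 8.28 RPKM, and the RNA-binding proteins Hnrnpa2b1 and Hnrnpa1 3588 at 17.3 RPKM and 3062 at 30.8 RPKM. Antisense reads were 11.8%, 12.9%, 11.1% and 5.31% of the reads in these 4 lists, and single genes departed from this, as in Ruvbl1 with 210 sense and 462 antisense reads.

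The stem cell label was checked on marker genes. Of 10 embryonic stem cell markers 8 had at least 50 sense reads, among them Pou5f1 with 429 and Sox2 with 210, while Nanog had 37 and Utf1 6, and the median of the list was 3.87 RPKM. All 6 fibroblast markers did as well, from 327 reads of Thy1 to 39715 of Fn1, and their median, 18.7 RPKM, was above that of the stem cell markers. Of 3 blood markers 0 did, with Hba-a1 and Hbb-bs at 0 reads (a count of 0 leaves room for 3) and Ptprc at 32. Reads that matched several genes were not assigned, so the counts of 0 do not bound reads shared with similar genes. Of 3 neuronal markers 0 did. The part of fibroblast RNA in the telomere repeat reads was not tested.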

How the data were processed

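Per the labels' protocols, nuclear lysates were incubated with the antibody, RNA was recovered on protein A beads, and libraries were made by template switching. The authors deposited 1 table without a header, with each distinct read sequence (12 to 40 bases) and its count of reads, not scaled to depth. No label states how reads were filtered. Abbreviations in the table's name may mean unique sequences without ribosomal or homopolymer reads. The table holds 0 reads of at least 26 bases made of 1 base only, but it does hold reads of the 18S-like locus, and what such filters did to tandem repeats was not tested. The submitters' processing notes name the build mm9, and the table has no coordinates. Its 1 count column was tied to no sample, so no test between groups was made and no paired or replicate error exists.

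The members, lists and comparisons were chosen with earlier results of these data known. The rule for sequences took the 4 most read of each RNA strand and the 2 most read per strand and flank side with a flank of 8 bases or more, of which only the G-rich flanked sequences are printed, and the others are not reported here. Hexamers named are the 5 largest classes and the 3 largest that are 1 substitution from the telomere. Genes named are the 4 most read of each telomere list and Terc, Tert, Terf1, Terf2, Pot1a and Atrx, with others named after their values were seen. Bases were matched to the GENCODE M21 transcripts with bwa 0.7.19 (first 6 bases removed, up to 2 mismatches, no gaps, up to 1000 placements), and a read was assigned where its best matches named 1 gene in sense (antisense matches to genes overlapping it were ignored), or 1 gene in antisense alone. Intervals are exact Clopper-Pearson or Poisson (scipy 1.17.1). The deviation profile and its limit of 3 bases were set after the data had been seen. The functions for tracts, strands and hexamers were tested on simulated data. Precision is that of the counts printed, and no correction was made for PCR copies.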

Additional observations from a re-analysis of the deposited data

How the results depend on the processing

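The G-rich share stayed between 98.3% and 99.81% under all 11 alternatives tried. It lay outside the interval of the value reported in 5 of them, at 98.96% with each distinct sequence counted once, 98.3% with each counted once without its first 6 bases, 98.9% in 36-base reads, 99.2% at 2 or more units and 99.17% with 1 substitution allowed. The number of members moved by over 1.5 times in 4 settings, to 768 distinct sequences, 419 distinct sequences without the first 6 bases, 544 reads of 36 bases and 6741 reads at 2 or more units. The share that is repeat from end to end, 21.4% over both RNA strands, depended on the setting. It was 2.21% by distinct sequences, 4.53% by distinct sequences without the first 6 bases, 13.2% without the most read sequence of each strand, 18.01% in 36-base reads, 73.3% with the first 6 bases left out of the search, 11.6% at 2 or more units, 25.5% at 4 or more units, 18.6% with 18 bases in any phase and 14.6% with 1 substitution allowed. In the settings on units, phase and substitutions the number of end-to-end reads is 785 as in the value reported and only the total differs. The share of hexamer classes with a leading strand was 90.9% to 95% over 3 alternatives. With 12 C-rich reads, no difference within that strand can be resolved.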
